A study of Mus musculus with 24 samples.

Results

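The replicative helicase genes Mcm2 to Mcm7, the sliding clamp gene Pcna and the D-type cyclin genes Ccnd1, Ccnd2 and Ccnd3 were followed in mouse epididymal fat under dietary restriction and rapamycin. The members are all probes that the platform annotation assigns to these 10 symbols. They number 23 of 45281 probes, and 10 of the 19057 genes on the array. Of the 23 probes, 18 were detected on at least 8 of the 24 arrays (detection p under 0.05) and were tested, and each of the 10 genes has at least 1 of them.

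All mice were male C57BL6/J mice of 8 months, and no genetic alteration is given in the labels. The AL group was fed ad libitum, the DR group was held on 40% dietary restriction, and the Rapa group received 14 ppm rapamycin, an inhibitor of the mTOR kinase. Both treatments started when the mice were 2 months old and ran for 6 months, and each group holds 8 arrays. Nothing in the labels ties each sample to an animal of its own, so the p-values refer to the spread between samples, which may be partly technical.

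The MCM2 to MCM7 proteins form a ring that is loaded on DNA at replication origins before S phase and later unwinds the double helix ahead of the polymerases. PCNA encircles DNA and holds the polymerases on it. The D-type cyclins bind the kinases CDK4 and CDK6 and, by phosphorylation of the RB protein, release the E2F factors that switch on S-phase genes, the helicase genes among them. In adult fat most mature adipocytes do not divide, and progenitor, endothelial and immune cells account for much of the replication in the tissue.

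In DR fat Mcm5 was called lower than in both other groups, and Mcm2 and Mcm6 were called lower than in Rapa fat. Mcm6 was called on its brightest probe only. Of 13 alternative settings, the call of Mcm5 was lost in 5 against AL and in 3 against Rapa. The calls of Mcm2 and Mcm6 against Rapa were lost in 6 and 7 of them. Ccnd1 had lower means in DR on each of its 3 probes, with calls on 1 probe against AL and on 2 against Rapa, although its brightest probe passed in neither comparison. Mcm4 had higher means in DR and in Rapa than in AL and did not pass. Ccnd2 and Ccnd3 had no called difference. Among regulators of the same step, the CDK inhibitor genes Cdkn1a and Cdkn2b fell in DR, and Cdkn1c and Fbxo31 rose against AL. Of the 13 settings, Cdkn1a lost its calls in 0, and Cdkn2b in 2 against AL and 7 against Rapa. The calls of Cdkn1c and Fbxo31 against AL were lost in 3 and 2.

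Promoter-window sequence of the helicase genes is shown because E2F factors bind the kind of motif it holds and because the genes called by their brightest probe are helicase genes. RefSeq promoter windows of the GRCm38.p6 assembly, from 250 bases before to 50 after each start site, were matched for 7 of the 10 genes in 9 windows. The motifs TTTCGCGC, TTTGGCGC, TTTCCCGC and TTTGCCGC were searched on both strands. At least 1 of them was found in 4 of the 9 windows, one each of Mcm3, Mcm5, Mcm6 and Mcm7, and in 744 of all 32851 windows (2.26%). No match was found in the windows of Mcm2, Pcna and Ccnd3, which says only that these letters are not there. Mcm4, Ccnd1 and Ccnd2 had no window in the table. For Mcm5 the 209 bases before the annotated gene start at chr8:75109259-75109467 (plus strand, 5′ to 3′) are given, with the motif in capitals. The capitals are TTTCGCGC on the gene's strand overlapped by TTTGGCGC on the other strand.
Mcm5: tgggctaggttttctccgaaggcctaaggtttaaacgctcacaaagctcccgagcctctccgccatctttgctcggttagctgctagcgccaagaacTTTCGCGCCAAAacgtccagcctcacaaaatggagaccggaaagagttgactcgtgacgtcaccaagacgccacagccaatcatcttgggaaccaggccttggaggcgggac

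Stretches of 30 bases around matches in 3 other helicase genes, all on the minus strand and printed 5′ to 3′ along the gene, show the same kind of motif in capitals. The first of Mcm6, at chr1:128359795-128359824, holds the same overlapping pair in the opposite orientation, and the second lies at chr1:128359734-128359763. The printed stretch of Mcm7 at chr5:138172030-138172059 and that of Mcm3 at chr1:20820275-20820304 hold TTTCCCGC on the strand opposite to the gene. Each of these genes has a further match on the gene's strand that is not printed. It is TTTCGCGC at chr5:138171860-138171867 for Mcm7 and TTTGGCGC at chr1:20820267-20820274 for Mcm3. Both stretches of Mcm6 lie before its annotated start, while that printed for Mcm3 lies after the start site, at bases 9 to 38. The printed stretch of Mcm7 lies before the start site of its window but inside the gene as annotated, which ends at base 138172111. A match is a description of the sequence, and no binding was measured here.
Mcm6 first: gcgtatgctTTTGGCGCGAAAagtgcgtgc
Mcm6 second: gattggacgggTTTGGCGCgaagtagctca
Mcm7: aatttcgaaccGCGGGAAAcagggtgtcca
Mcm3: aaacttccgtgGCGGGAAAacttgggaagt

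The arrays detected between 13012 and 19203 of the 45281 probes, and the AL mean was 16834 ± 1444 probes (SD, n = 8), against 15497 ± 1515 for DR and 16309 ± 1852 for Rapa. One source label names epididymal fat and other labels name liver. Every array detected 8 of the 9 adipocyte markers that have a probe, whereas 4 of 10 hepatocyte markers, albumin (Alb) among them, were detected on no array and 0 on every one. Transcripts known from epididymis and testis, which lie beside this fat pad and hold dividing germ cells in the testis, were present on some arrays. The 11 such genes read here were named from earlier results of these data. Their mean log2 level was 7.97 ± 1.70 in DR, 6.55 ± 2.17 in Rapa and 5.54 ± 0.72 in AL. This mean level exceeded 8 on 7 arrays (DR1, DR3, DR5, DR7, DR8, Rapa6 and Rapa8). It exceeded 6 on 12, of which 2 are AL, 6 DR and 4 Rapa arrays. AL6 lies under both limits at 5.83, although its summed intensity over these genes before normalization (10923.5) was above that of DR7 (7889). Fits without the 7 or the 12 arrays therefore keep AL6 and do not remove all such signal. Arrays whose label numbers differ by 4, such as 1 and 5, resembled each other. These 4 number classes each hold 2 arrays of every group, and the labels do not say what they share. They differ in brightness before normalization. The upper quartile of intensity was 15 to 29.8 on arrays numbered 1 or 5 and 73.7 to 111.7 on those numbered 2 or 6. On the remaining arrays it was 32.6 to 80.7. The part of brightness in the likeness was not tested, and values within the classes are given beside the results.

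Levels below are normalized log2 intensities. They cannot be compared between probes. In these bulk samples fewer cells of a type and less RNA per cell cannot be told apart. A difference is a log2 fold change with its standard error (SE), and it was called at an adjusted p under 0.05 in a limma fit over all 24 arrays, adjusted by the Benjamini-Hochberg method over 17165 probes. DR against AL and DR against Rapa share the DR arrays and are not independent.

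Of the 10 genes, 1 was called lower and 0 higher in DR against AL, beside 11.7% of all 9836 genes called in that comparison (5.2% higher and 6.5% lower). Their median log2 fold change was -0.26, and that of all genes tested was -0.01. At an unadjusted p under 0.05 there were 5 of the 10, beside 25.2% of all genes. In Rapa against AL limma called 0 of the 10, beside 0.153% of all genes, with 2 of the 10 and 9.61% of all genes at an unadjusted p under 0.05. In DR against Rapa 3 of the 10 were called, all lower, beside 11.4% of all genes (5.88% higher and 5.54% lower), with medians of -0.19 for the 10 and -0.01 for all. By probe, 2 of 18 were lower in DR against AL (5.89% of all probes). In Rapa against AL 0 of 18 were called (0.134%). In DR against Rapa 5 of 18 were lower (4.67%), with more than 1 probe of Ccnd1 among them. The members were chosen with earlier results of these data known, so their shares are no independent comparison with those of all genes. For none of the 10 genes did the arrays of any pair of groups stand fully apart, as they did for 2.8%, 0.0915% and 2.26% of all genes in the 3 comparisons.

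**Figure D1:**
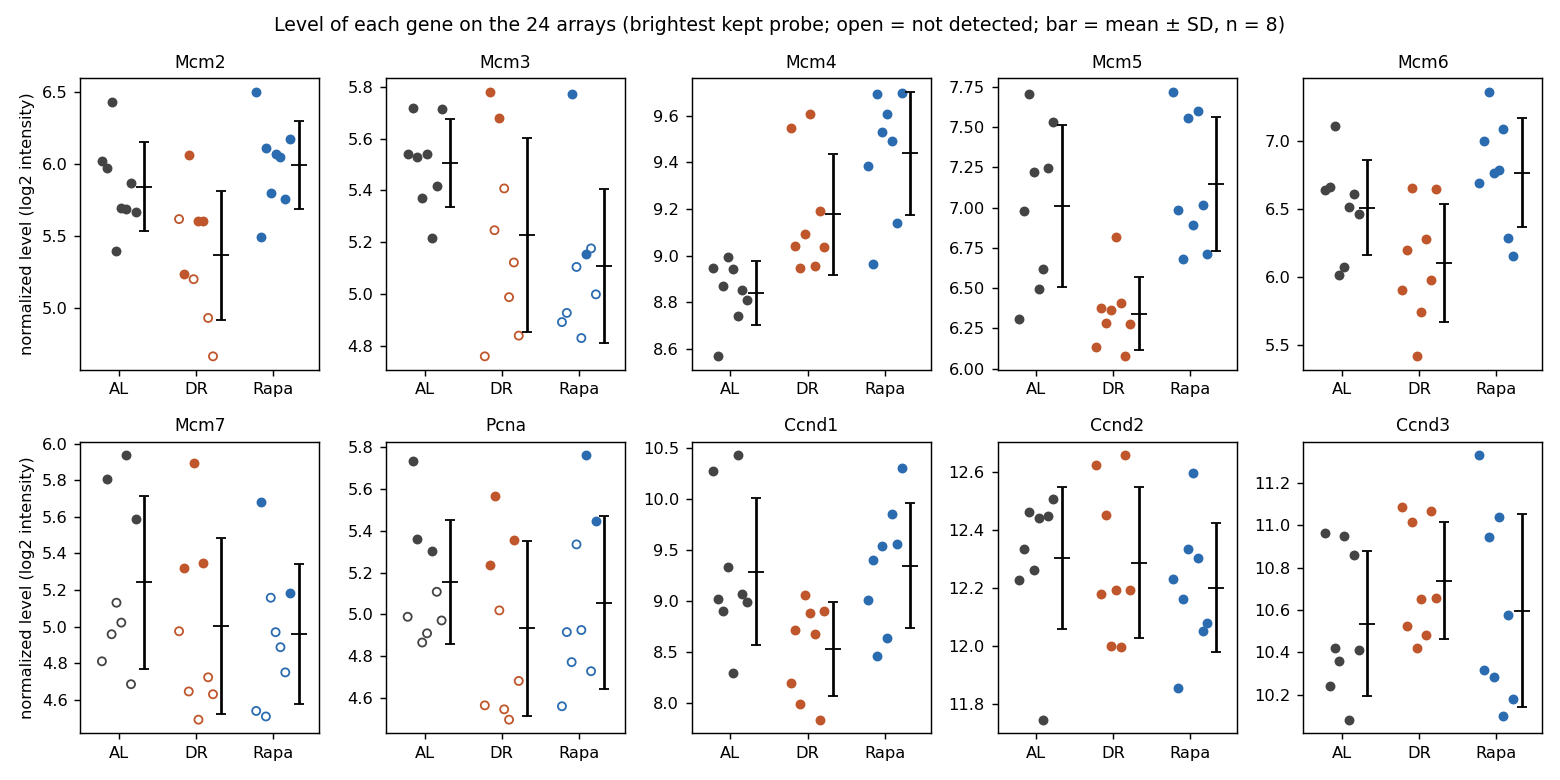
Normalized log2 intensity (vertical axis) of the brightest tested probe of each of the 10 genes on the 24 arrays, by group (horizontal axis), with open points where the probe was not detected on that array and bars for mean ± SD (n = 8). The DR arrays of Mcm5 lie between 6.08 and 6.82, below the Rapa mean of 7.14 in each case, and the Mcm4 panel has its AL arrays at the bottom, between 8.57 and 9.0.

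Mcm5 encodes the subunit that forms, with MCM2, the gate at which the ring opens. On its single probe (ILMN_2742849) the level was lowest 6.30, median 7.10 and highest 7.71 on the AL arrays. On the DR arrays these values were 6.08, 6.32 and 6.82, and on the Rapa arrays 6.68, 7.00 and 7.72. All 8 DR arrays lay below the AL mean and 4 lay below every AL array, while 7 of 8 DR arrays lay below every Rapa array. The probe was detected on all 24 arrays.

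Mcm5 was lower in DR than in AL by a log2 fold change of -0.67 ± 0.20 (adjusted p = 0.0272), a 1.59-fold difference, and lower than in Rapa by -0.80 ± 0.20 (adjusted p = 0.00821), a 1.74-fold difference. Rapa stood at 0.13 ± 0.20 against AL (adjusted p = 0.874). Within the 4 number classes DR against AL was 0.08, -0.41, -1.30 and -1.06, so that the first class had no lower DR mean. DR against Rapa within the classes was -0.83, -0.90, -0.67 and -0.81, lower in each. The AL arrays differed among themselves more than the DR arrays, with an SD of 0.50 against 0.23.

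The call of Mcm5 against AL was lost on omission of any one of AL3, AL4, AL7, AL8, DR1 and DR7, with adjusted p up to 0.0712 and log2 fold changes from -0.77 to -0.57 over the 24 fits. The call against Rapa was kept in each of those 24 fits. Without the 7 arrays with an epididymis and testis marker level above 8 (a limit chosen after seeing the data), the differences were -0.63 (adjusted p = 0.252) and -0.76 (adjusted p = 0.115), with 3 DR arrays left. The call against AL was also lost with no detection filter (adjusted p = 0.0549), and with median scaling of the arrays the differences were -0.999 (adjusted p = 0.0687) and -0.87 (adjusted p = 0.204). Neither call was kept without the 12 arrays with a marker level above 6, which left 2 DR arrays. Over 13 alternatives the call against AL was lost in 5, with adjusted p up to 0.413. Its log2 fold change nearest to 0 was -0.51.

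Mcm2 encodes the other side of the gate and a target of the CDC7 kinase. Its probe (ILMN_1250907) had a lowest, median and highest level of 5.40, 5.78 and 6.43 in AL, 4.67, 5.42 and 6.06 in DR, and 5.49, 6.06 and 6.50 in Rapa. The DR arrays overlapped both other groups, with 4 of 8 below every AL array and 4 below every Rapa array. The probe was detected on 8 AL, 4 DR and 8 Rapa arrays, so the DR values lie partly in the background. It passed the detection filter mainly through AL and Rapa, so its call is not independent of the filter.

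Mcm2 was lower in DR than in Rapa by a log2 fold change of -0.63 ± 0.18 (adjusted p = 0.0253), and the classes gave -0.67, -0.35, -0.44 and -1.05. Against AL the difference was -0.47 ± 0.18 and did not pass (adjusted p = 0.101). A fit with the number class as a block, an alternative chosen after seeing the data, called it (adjusted p = 0.0484). The difference from AL passed in 3 of 13 alternatives, that block among them (adjusted p down to 0.0307), and on omission of DR3 (adjusted p = 0.0401). The call against Rapa was lost without DR7, without DR8 and without Rapa1 (adjusted p up to 0.0625), in the fit of those groups alone (adjusted p = 0.0529) and without the 7 arrays (-0.61, adjusted p = 0.114). In all, 6 of 13 alternatives lost that call, with adjusted p up to 0.260.

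Mcm6 encodes a subunit of the same ring and has 3 tested probes. On the brightest (ILMN_1217331) the lowest, median and highest levels were 6.01, 6.56 and 7.11 in AL, 5.42, 6.09 and 6.66 in DR, and 6.15, 6.78 and 7.36 in Rapa. All 8 DR arrays were below the Rapa mean, and 4 were below every Rapa array. The difference between DR and Rapa was -0.67 ± 0.20 (adjusted p = 0.0282), with class values of -0.92, -0.81, -0.51 and -0.43.

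The other Mcm6 probes did not pass in this comparison, at -0.28 ± 0.14 (adjusted p = 0.262) and -0.48 ± 0.32 (adjusted p = 0.414). Against AL the 3 probes of Mcm6 stood at -0.41 (adjusted p = 0.211), 0.03 (adjusted p = 0.940) and -0.66 (adjusted p = 0.209) in DR. The probes followed one another weakly over the 24 arrays, with Pearson correlations of 0.17, 0.38 and 0.01. The call of the brightest probe against Rapa was lost without DR1, DR4, DR5, Rapa2, Rapa3 or Rapa6, one at a time (adjusted p up to 0.0663), and without the 7 arrays (-0.85, adjusted p = 0.0536). That exclusion is among 7 of 13 alternatives in which the call was lost, with adjusted p up to 0.423. The log2 fold change nearest to 0 among the alternatives was -0.47.

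Mcm4 encodes a subunit that the cell cycle kinases phosphorylate when the helicase is activated. Its levels on the tested probe (ILMN_2936427) were 8.57, 8.86 and 9.0 (lowest, median and highest) in AL. They were 8.95, 9.07 and 9.61 in DR and 8.96, 9.51 and 9.70 in Rapa. Each DR and each Rapa array was above the AL mean, and 6 of 8 DR and 7 of 8 Rapa arrays were above every AL array.

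Mcm4 stood at 0.60 ± 0.13 in Rapa against AL and did not pass (adjusted p = 0.0690), although it was placed 30 of 17165 probes by p-value in a comparison with few calls. Class values were 0.55, 0.57, 0.56 and 0.71, and the class block gave adjusted p = 0.00777. It passed in 7 of 13 alternatives, that block among them, and on omission of DR5 or of Rapa2 (adjusted p down to 0.0306). In DR against AL it stood at 0.34 ± 0.13 (adjusted p = 0.113), with class values of 0.63, 0.34, 0.21 and 0.16 and adjusted p = 0.0337 under the class block. With median scaling of the arrays, under which the median of all genes moved to -0.28 in DR against AL and -0.21 in Rapa against AL, Mcm4 stood at -0.025 and 0.32.

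This pattern of Mcm4 rests on 1 of 3 probes. The other probes, annotated to the same transcript, were detected on 1 and on 0 of the 24 arrays and were not tested. The AL, DR and Rapa means of the probe detected once were 4.82, 4.67 and 4.82, in the range of the background.

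Mcm3 and Mcm7 encode neighbouring subunits of the ring and lay near the background. Mcm3 had levels of 5.22, 5.53 and 5.72 (lowest, median and highest) in AL, 4.76, 5.18 and 5.78 in DR, and 4.83, 5.05 and 5.77 in Rapa. It was detected on all 8 AL arrays but on 2 DR and 2 Rapa arrays, and it passed the detection filter through AL. Of the Rapa arrays 7 of 8 were below every AL array, and the exception, Rapa3, was above them all.

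Mcm3 stood at -0.28 ± 0.16 in DR (adjusted p = 0.301) and -0.40 ± 0.16 in Rapa (adjusted p = 0.416) against AL, and neither passed. Mcm7 was detected on 8 of 24 arrays by each of its tested probes. Those probes stood at -0.24 and 0.10 in DR and at -0.28 and 0.40 in Rapa against AL, opposite in sign in both cases, with a correlation of -0.20 over the arrays. None of these values of Mcm7 passed (adjusted p of 0.439 or above for those values).

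Pcna, the clamp gene, was detected on 3 AL, 3 DR and 2 Rapa arrays. Its lowest, median and highest levels were 4.87, 5.05 and 5.74 in AL, 4.50, 4.85 and 5.57 in DR, and 4.56, 4.92 and 5.76 in Rapa. The groups overlapped throughout. Pcna stood at -0.22 ± 0.19 in DR (adjusted p = 0.540, 95% interval -0.61 to 0.17) and -0.10 ± 0.19 in Rapa (adjusted p = 0.909) against AL, and a difference was not detectable at this signal.

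**Figure D2:**
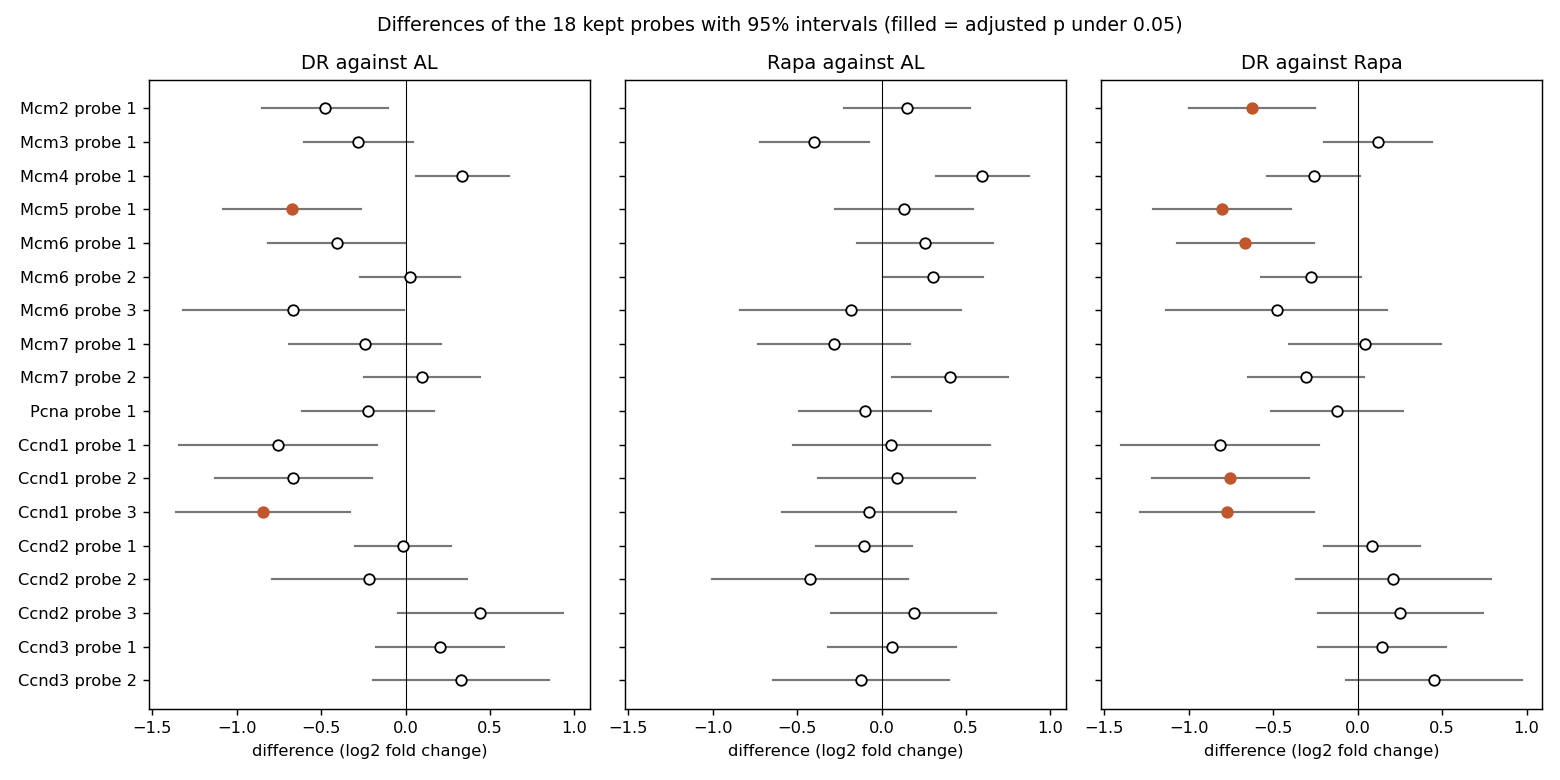
Log2 fold change (horizontal axis) with its 95% interval for each of the 18 tested probes (rows, numbered within a gene) in the 3 comparisons, with filled points for an adjusted p under 0.05. The 2 filled points of DR against AL and the 5 of DR against Rapa all lie below 0, and Rapa against AL has none.

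Ccnd1 encodes cyclin D1, whose level follows growth factor signals. On the brightest probe (ILMN_1221503) the lowest, median and highest levels were 8.29, 9.04 and 10.43 in AL, 7.84, 8.69 and 9.06 in DR, and 8.46, 9.47 and 10.30 in Rapa. All 8 DR arrays were below the AL mean and below the Rapa mean, and 3 of 8 were below every array of AL, with the same count for Rapa. The differences of DR were -0.76 ± 0.28 against AL (adjusted p = 0.0939) and -0.81 ± 0.28 against Rapa (adjusted p = 0.0693).

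The second Ccnd1 probe (ILMN_2601471) had levels of 8.77, 9.11 and 9.83 in AL, 7.93, 8.42 and 9.69 in DR, and 8.40, 9.28 and 9.99 in Rapa. Of the DR arrays 7 of 8 lay below every AL array, and the other, DR5 at 9.69, lay near the top of them. The differences of this probe were -0.66 ± 0.23 against AL (adjusted p = 0.0591) and -0.75 ± 0.23 against Rapa (adjusted p = 0.0310).

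The third Ccnd1 probe (ILMN_2669793) had levels of 7.11, 7.57 and 8.52 in AL, 5.85, 6.70 and 7.77 in DR, and 7.17, 7.57 and 8.06 in Rapa. Here 6 of 8 DR arrays lay below every AL array and 6 below every Rapa array. The differences were -0.85 ± 0.25 against AL (adjusted p = 0.0282) and -0.77 ± 0.25 against Rapa (adjusted p = 0.0490). The 3 probes followed one another over the 24 arrays with correlations of 0.75, 0.64 and 0.85, and their mean passed against both AL (adjusted p = 0.0228) and Rapa (adjusted p = 0.0186).

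Class values of the brightest Ccnd1 probe in DR against AL were -0.74, -1.03, -1.07 and -0.18, and in DR against Rapa -0.28, -0.93, -1.10 and -0.94. The class block called it in both (adjusted p = 0.0437 and 0.0311). Omission of AL5 gave a call against AL (adjusted p = 0.0382), and omission of AL6, Rapa3 or Rapa5 gave one against Rapa (adjusted p down to 0.0344). Other settings moved the values toward 0. Without the 7 arrays this probe had differences of -0.47 from AL (adjusted p = 0.562) and -0.29 from Rapa (adjusted p = 0.684). Without the 12 arrays with a marker level above 6 they were -0.47 (adjusted p = 0.714) and -0.22 (adjusted p = 0.784). AL6, the highest array of this probe at 10.43, stayed in both fits. Rapa against AL stood at 0.06, 0.09 and -0.08 on the 3 probes, with a 95% interval of -0.53 to 0.64 for the brightest.

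Ccnd2 encodes cyclin D2 and was bright on its first probe (ILMN_2700166). The lowest, median and highest levels were 11.75, 12.39 and 12.50 in AL, 11.996, 12.19 and 12.66 in DR, and 11.86, 12.20 and 12.60 in Rapa. The groups overlapped almost fully. DR stood at -0.02 ± 0.14 (95% interval -0.30 to 0.27) and Rapa at -0.10 ± 0.14 (95% interval -0.39 to 0.18) against AL. The second probe stood at -0.21 and -0.42, and the remaining one, annotated to another transcript, at 0.44 and 0.19, with adjusted p of 0.269 or above for all of them. The first and second probes had a correlation of -0.14 over the arrays, so they do not give one order of the samples.

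Ccnd3 encodes cyclin D3, known to promote adipocyte differentiation as well as the cycle. Its first probe (ILMN_3131063) had levels of 10.08, 10.42 and 10.97 in AL, 10.42, 10.65 and 11.09 in DR, and 10.10, 10.45 and 11.33 in Rapa. The groups overlapped, and 3 of 8 DR arrays were higher than all of AL. DR stood at 0.20 ± 0.18 (adjusted p = 0.571, 95% interval -0.18 to 0.58) and Rapa at 0.06 ± 0.18 (adjusted p = 0.948) against AL. The second probe stood at 0.33 ± 0.25 and -0.12 ± 0.25 and followed the first with a correlation of 0.71.

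Across arrays the members did not form one pattern. Correlations of the brightest probes over the 24 arrays, which share quantile normalization and mix differences between and within groups, were 0.54 for Mcm2 with Mcm5, 0.51 for Mcm2 with Mcm6 and 0.47 for Mcm5 with Mcm6. As deviations from group means these were 0.21, 0.23 and 0.12. Mcm4 had correlations between -0.48 and 0.20 with the other helicase genes. The brightest Ccnd1 probe was opposed to the first probe of Ccnd2 at -0.60 and to that of Ccnd3 at -0.62. As deviations from group means these were -0.68 and -0.61. The first Ccnd2 probe had a correlation of -0.14 with the second, so the value for Ccnd2 describes that probe and not the gene.

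The 6 genes most like the mean of Mcm2 to Mcm7 among 9826 others, by Pearson correlation over the 24 arrays, were the annexin gene Anxa1 (0.84), the alpha-tubulin gene Tuba1b (0.81), the chemokine genes Ccl7 (0.81) and Ccl9 (0.79), the scaffold gene Iqgap1 (0.81) and Arhgap25 (0.79). As deviations from group means these correlations were 0.59, 0.71, 0.49, 0.53, 0.57 and 0.58. Most like Ccnd1 were Rab11fip4 (0.80), Dlg5 (0.78), Axin2 (0.77) and the matrix gene Mgp (0.77). Wnt5a (0.74), P2ry14 (0.73), Mapkapk3 (0.71) and 2610016A17Rik (0.70) were most like the first probe of Ccnd2. Those most like Ccnd3 were Slc38a7 (0.91), Pdpk1 (0.90), Gpr1 (0.90) and Cebpg (0.89).

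The other genes of replication and the cell cycle were read from 10 lists ordered by role, with 112 genes, of which 109 are on the array and 78 were tested. In DR against AL 2 were higher and 5 lower (8.97% called, beside 11.7% of all genes). In Rapa against AL limma called 0, with 7 of the 78 at an unadjusted p under 0.05. In DR against Rapa 1 was higher and 5 lower (7.69% called, beside 11.4% of all genes). These lists, too, were chosen with earlier results of these data known.

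Of the factors that load the helicase on origins, 0 of 7 tested passed in any comparison, with 3, 0 and 2 at an unadjusted p under 0.05 in DR against AL, Rapa against AL and DR against Rapa. Of those that activate it, 1 of 7 passed, Cdc7, the kinase that phosphorylates MCM2. Its levels were 5.93, 6.34 and 6.85 (lowest, median and highest) in AL, 4.79, 5.62 and 6.25 in DR, and 5.47, 6.08 and 6.73 in Rapa. Cdc7 fell by 0.71 ± 0.21 on the log2 scale in DR against AL (adjusted p = 0.0249), and 6 of 8 DR arrays lay lower than all AL arrays. It stood at -0.92 when the 7 arrays were left out (adjusted p = 0.0658), and the call was lost without AL7, DR1 or DR4, one at a time (adjusted p up to 0.0605). The related helicase genes Mcm8 and Mcm9 had no probe that passed the detection filter.

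Among polymerases, clamp loader and fork factors 1 of 22 passed in DR against AL, and the list's median was 0.00 beside -0.01 for all genes. This was Pold1, the catalytic subunit of the polymerase that PCNA holds on DNA. Its levels were 6.50, 6.73 and 6.91 in AL, 4.91, 6.14 and 6.88 in DR, and 6.08, 6.58 and 7.10 in Rapa, with the widest spread in DR. Pold1 stood at -0.64 ± 0.20 in DR against AL (adjusted p = 0.0343), at -0.13 without the 7 arrays (adjusted p = 0.805), and at 0.051 without the 12 arrays (adjusted p = 0.960, with 2 DR arrays left). Its call was also lost on omission of any one of AL1, AL2, AL5, AL8, DR1, DR3, DR5 and DR8 (adjusted p up to 0.0707). Of 4 tested nucleotide supply genes, the thymidine kinase gene Tk1 was lower in DR than in Rapa (adjusted p = 0.0356). It was detected on 7 AL, 2 DR and 7 Rapa arrays, and its DR mean of 5.04 lies mostly in the background, so that the size of the difference, -0.75 ± 0.23, is uncertain. Tk1 passed the detection filter mainly through AL and Rapa, the groups where it was higher, so this call is not independent of the filter. It stood at -0.74 without the 7 arrays (adjusted p = 0.155), and 7 of 13 alternatives lost the call. Omission of any one of DR1, DR2, DR3, DR4, DR8, Rapa3, Rapa4, Rapa5 and Rapa6 ended that call (adjusted p up to 0.0840).

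**Figure D3:**
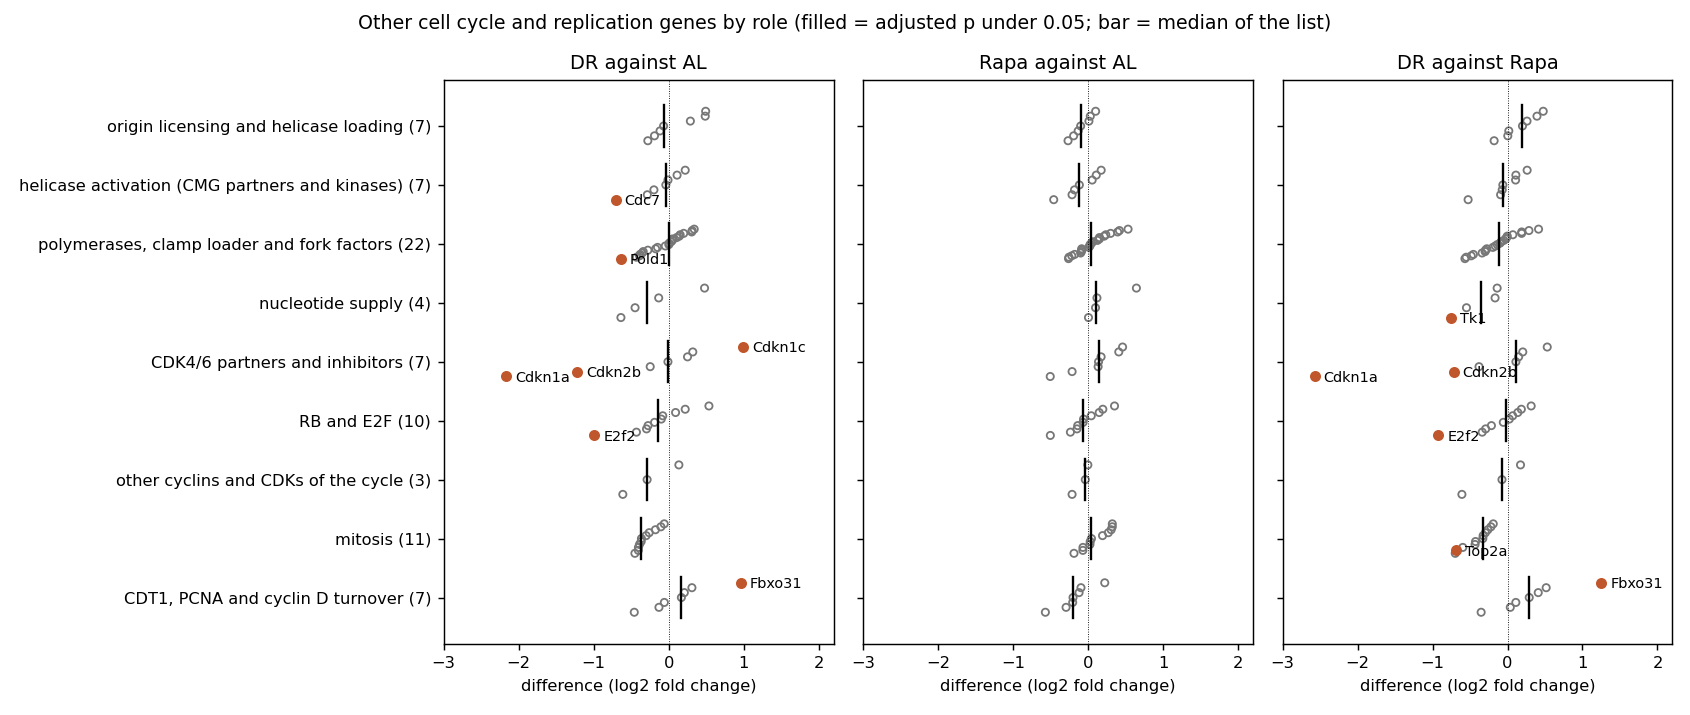
Log2 fold change (horizontal axis) of the 78 tested genes of the lists, by role (rows, with the number tested), in the 3 comparisons, with filled and named points for an adjusted p under 0.05 and a bar at each list's median. The named points at the far left in DR against AL and DR against Rapa are Cdkn1a at -2.16 and -2.57, and Rapa against AL has no filled point.

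The kinase partners and inhibitors of the D-type cyclins held the largest difference among these lists. Of 7 tested, 1 was higher and 2 lower in DR against AL, and 2 were lower in DR against Rapa. Cdkn1a encodes p21, which binds both cyclin-CDK pairs and PCNA. It had levels of 9.60, 10.42 and 10.65 in AL, 6.93, 7.86 and 9.37 in DR, and 9.96, 10.61 and 11.71 in Rapa. All 8 DR arrays lay below every AL array and every Rapa array.

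Cdkn1a fell by 2.16 ± 0.29 on the log2 scale in DR against AL (adjusted p = 1.51e-05), a 4.48-fold difference, and was lower than in Rapa by -2.57 ± 0.29 (adjusted p = 1.44e-06). Its other probes stood at -1.88 and -1.38 against AL and at -2.26 and -1.35 against Rapa, and all passed. Without the 7 arrays the brightest probe stood at -2.96 (adjusted p = 1.33e-05) and -3.40 (adjusted p = 4.74e-06). Rapa stood at 0.41 ± 0.29 against AL (adjusted p = 0.682).

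Cdkn2b encodes p15, an inhibitor of CDK4 and CDK6. It had levels of 7.61, 8.19 and 8.89 in AL, 6.15, 7.20 and 7.38 in DR, and 6.83, 7.77 and 8.36 in Rapa, and all 8 DR arrays lay under the whole AL range. It fell by 1.22 ± 0.22 in DR against AL (adjusted p = 5.35e-04) and was lower than in Rapa at -0.72 ± 0.22 (adjusted p = 0.0382). Without the 7 arrays these were -0.93 (adjusted p = 0.0951) and -0.38 (adjusted p = 0.487). The call against Rapa was lost without DR1, DR5, DR8, Rapa2, Rapa3, Rapa6 or Rapa7, one at a time (adjusted p up to 0.0822).

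Cdkn1c encodes p57, an imprinted CDK inhibitor, and went the other way. Its levels were 9.03, 9.63 and 10.77 in AL, 10.34, 10.78 and 11.16 in DR, and 9.31, 10.29 and 10.95 in Rapa. Only AL1 among the AL arrays reached the DR range. Cdkn1c rose by 0.99 ± 0.22 in DR against AL (adjusted p = 0.00319, and 0.0770 with median scaling), stood at 0.46 ± 0.22 in Rapa against AL (adjusted p = 0.518), and at 0.70 in DR without the 7 arrays (adjusted p = 0.181).

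In the RB and E2F list 1 of 10 passed in DR against AL and the same number in DR against Rapa, in each case E2f2, an activator of S-phase genes. Its levels were 6.05, 6.43 and 6.89 in AL, 5.02, 5.53 and 5.95 in DR, and 5.58, 6.39 and 7.51 in Rapa. The 8 DR arrays lay below every AL array, and 4 lay below every Rapa array. E2f2 fell by 0.99 ± 0.21 against AL (adjusted p = 0.00255) and was lower than in Rapa at -0.92 ± 0.21 (adjusted p = 0.00458), and it passed in both without the 7 arrays (-1.04 with adjusted p = 0.0323, and -1.17 with adjusted p = 0.0178). A second probe was lower against AL at -0.81 ± 0.25 (adjusted p = 0.0317) and stood at -0.25 against Rapa (adjusted p = 0.619).

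In the list of CDT1, PCNA and cyclin D turnover 1 of 7 passed in each comparison with DR. This was Fbxo31, a ubiquitin ligase subunit known from human cells to target cyclin D1 for degradation. Its levels were 8.12, 8.63 and 9.03 in AL, 8.64, 9.52 and 10.33 in DR, and 7.88, 8.38 and 8.73 in Rapa, and DR5 was the one DR array within the range of the others. Fbxo31 rose by 0.96 ± 0.20 in DR against AL (adjusted p = 0.00166) and was higher than in Rapa at 1.25 ± 0.20 (adjusted p = 9.58e-05). Its other probes stood at 1.51 and 1.28 against AL and all passed, and the first passed without the 7 arrays at 0.91 (adjusted p = 0.0131). With median scaling it stood at 0.61 against AL (adjusted p = 0.366) and 1.18 against Rapa (adjusted p = 0.0998).

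**Figure D4:**
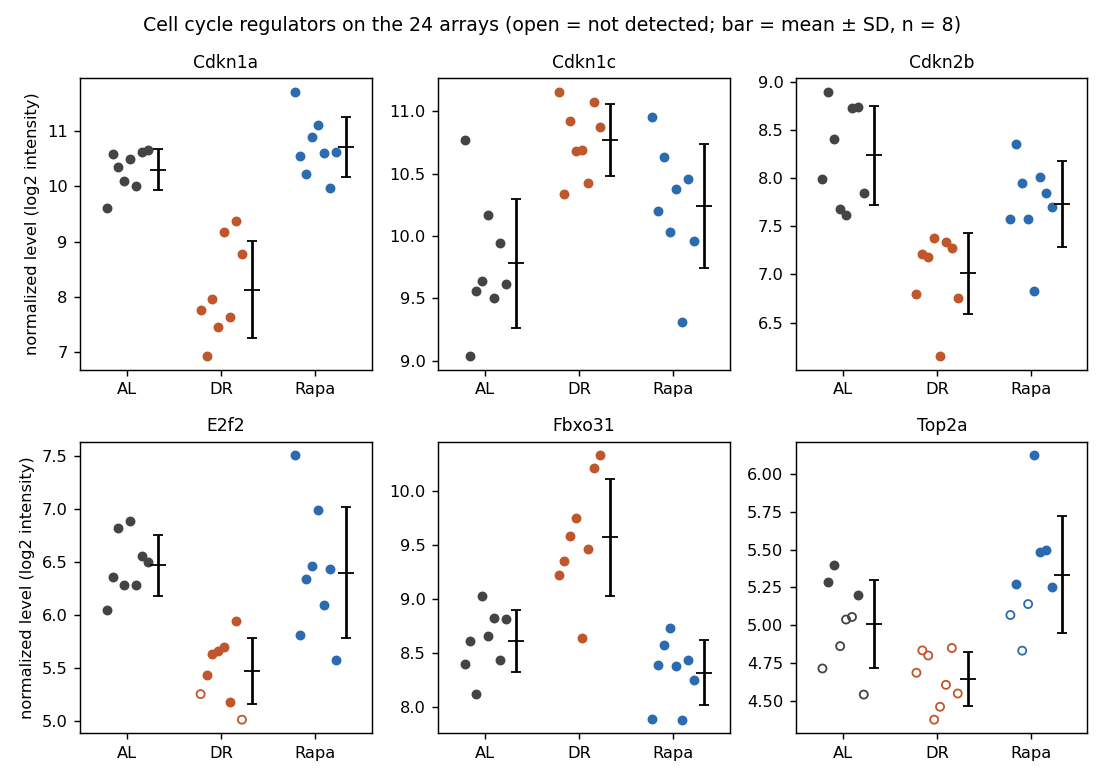
Normalized log2 intensity (vertical axis) of 6 cell cycle regulators on the 24 arrays by group (horizontal axis), with open points where the probe was not detected on that array and bars for mean ± SD (n = 8). DR arrays of Cdkn1a lie between 6.93 and 9.37, below all others, and those of Top2a are all open.

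Genes of mitosis lay near the background, and 0 of 11 passed in DR against AL in limma (3 at an unadjusted p under 0.05). All 11 had a log2 fold change below 0 in DR against AL, from -0.45 to -0.06 with a median of -0.36, beside a median of -0.01 for all genes, of which 5021 of 9836 were below 0. In DR against Rapa all 11 were below 0 too, with a median of -0.33, beside 5053 of all 9836 genes, and 1 passed. That gene was Top2a, the topoisomerase of dividing cells, detected on 3 AL, 0 DR and 5 Rapa arrays (adjusted p = 0.00466). Top2a passed the detection filter only through AL and Rapa, the groups where it was higher, so this call is not independent of the filter. Its measured means of 5.33 in Rapa and 4.64 in DR lie at the limit of detection, so no fold is given, and without the 7 arrays it did not pass (adjusted p = 0.0855). In Rapa against AL 8 of 11 were above 0, the median was 0.04, and 0 passed in limma, with 0 at an unadjusted p under 0.05. Of 3 other cyclins and CDKs of the cycle 0 passed in any comparison, with 1, 0 and 1 at an unadjusted p under 0.05.

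Marker genes of other cell types of fat were read beside these differences, against 11.7% of all genes called in DR against AL and 11.4% in DR against Rapa. The mean level of 15 macrophage markers lay between 8.28 and 9.12 in AL, between 7.75 and 8.43 in DR and between 8.15 and 9.20 in Rapa. Of 13 tested macrophage markers 4 were lower and 1 higher in DR against AL, and 6 were lower and 1 higher in DR against Rapa. Of the 15, 12 were detected on all 24 arrays, and Itgax on 1. Fibroblast and progenitor markers had means of 9.19 ± 0.21 in AL, 8.66 ± 0.35 in DR and 9.10 ± 0.40 in Rapa, with 3 of 9 lower in DR against each of the others. Endothelial markers had means of 9.17 ± 0.17, 8.86 ± 0.19 and 9.01 ± 0.38, with 2 of 9 lower in DR against AL and 0 of 9 called in limma against Rapa (0 at an unadjusted p under 0.05). Lymphocyte markers lay near the background in all groups (5.20, 5.15 and 5.26), with 2 of 8 detected on no array. Of 5 tested, 0 passed in limma in DR against AL (0 at an unadjusted p under 0.05) and 1 was lower in DR against Rapa. Adipocyte markers had means of 11.38, 11.38 and 11.15. The part of these markers in the differences of Mcm5, Mcm2, Mcm6 and Ccnd1 was not tested.

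**Figure D5:**
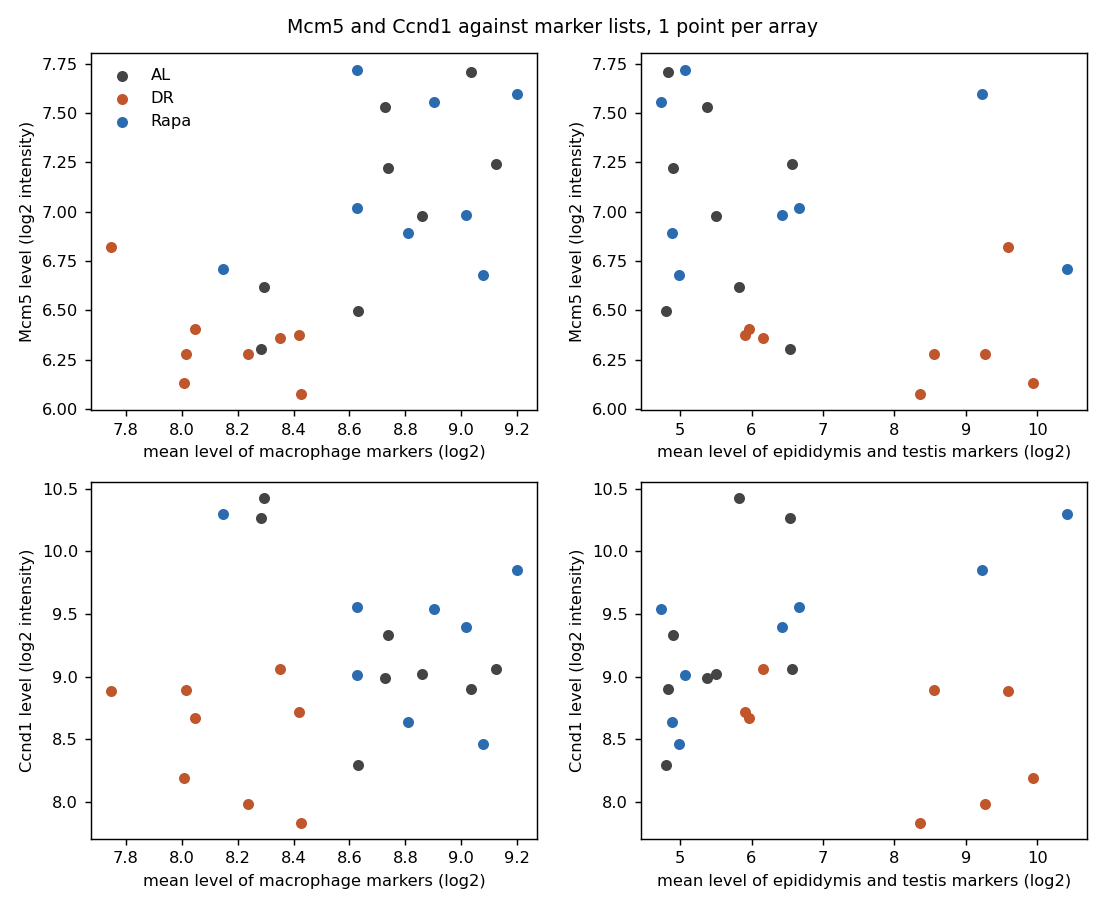
Level of Mcm5 (upper row) and Ccnd1 (lower row) as normalized log2 intensity (vertical axes) against the mean log2 level of macrophage markers (left) and of epididymis and testis markers (right), with 1 point per array coloured by group. The DR arrays have macrophage marker means between 7.75 and 8.43, a range shared by AL1, AL6 and Rapa8. On the epididymis and testis axis they spread from 5.91 to 9.94. On both vertical axes the DR arrays overlap the other groups.

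Of the epididymis and testis markers, 5 of 10 tested were higher in DR against AL, beside 5.2% of all genes. These markers were named from earlier results of these data, so that count is no independent result. None of the 11 was detected on all arrays. On the 5 DR arrays with a marker level above 8, Mcm5 had levels of 6.13 (DR1), 6.28 (DR3), 6.82 (DR5), 6.08 (DR7) and 6.28 (DR8). On the other 3 it had levels of 6.38 (DR2), 6.36 (DR4) and 6.41 (DR6). Thus 4 of the 5 lay below those 3, and DR5 lay above them. With the marker level as a covariate Mcm5 stood at -0.59 (adjusted p = 0.148) against AL and kept its call against Rapa, whereas the brightest Ccnd1 probe passed at -1.07 against AL (adjusted p = 0.0412) and -0.998 against Rapa (adjusted p = 0.0252).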

How the data were processed

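Each of the 24 samples was hybridised as biotinylated cRNA to 1 Illumina mouse BeadChip array, per the labels. The deposited intensity values were already background-subtracted, since some lie below 0, with no normalization between arrays. The detection p-value of each probe and array is given per the file headers. The authors' processed score is, from comparison with the intensities, a z-score within each array of log intensity after addition of a constant (largest deviation 0.00177), with an unknown log base, and was an alternative only. Scanner software and settings are not stated in what was used here. 

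The limma 3.58.1 function neqc (R 4.3.3, offset 16) gave log2 levels. A probe was kept if its detection p was under 0.05 on 8 or more arrays (17165 probes). Symbols came from the platform annotation (34885 probes with 1 symbol, 18 with several, 10378 unlisted), and a gene was its brightest kept probe. Group means were fitted over 24 arrays (21 residual degrees of freedom) with moderated two-sided tests, and the fit was tested on simulated data. Named genes are the members, the list genes called in any comparison (up to 4 a list) and the genes of highest correlation. Members and lists were chosen with earlier results of these data known, and the epididymis and testis markers were named from them. The array number limits the precision. Alternatives covered the filter, offset, scaling, source of values, probe choice, blocks, weights, marker level and left-out arrays.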

Additional observations from a re-analysis of the deposited data

Results flagged for a closer look

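In 6 of 54 groups of 8 arrays, over the 18 tested probes, 1 array stood apart from the rest by more than Dixon's critical share of the group's range, and chance alone marks about 1 in 20 groups. Mcm5 was highest of the DR arrays on DR5 at 6.82, with the next array at 6.41. The second Ccnd1 probe was also highest of DR on DR5, at 9.69 against 8.67 for the next. The second Mcm7 probe was highest of DR on DR2 at 5.76, with the next at 4.94, and Mcm3 was highest of Rapa on Rapa3 at 5.77, with the next at 5.18. Ccnd2 was lowest of AL on AL6, at 11.75 against 12.23 on its first probe. The second Ccnd3 probe was lowest of DR on DR8 at 5.29, with the next at 6.29, and was not detected there. DR5 has an epididymis and testis marker level of 9.59. It also has the lowest upper quartile of intensity of the DR arrays (17.5) and the lowest array weight of all arrays (0.40). The part of these traits in its values was not tested.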

How the results depend on the processing

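Of the 10 genes, 1 was called in DR against AL, 0 in Rapa against AL and 3 in DR against Rapa. In that order the counts were 2, 1 and 2 with array weights, 2, 1 and 4 with the mean of a gene's probes, 1, 1 and 1 with the authors' score, 1, 1 and 3 with an offset of 50, 0, 0 and 2 with no detection filter, and 0, 0 and 0 with median scaling. In the fit of only the 2 groups compared they were 1, 0 and 1. Without the 12 arrays above a marker level of 6 they were 0, 1 and 0, and without the 7 above 8 (chosen after seeing the data) 0, 0 and 0, with 2 and 3 DR arrays left. Leaving out each array in turn gave 0 to 2, 0 to 1 and 2 to 4. The single call in Rapa against AL under these settings is Mcm4, higher. Mcm4 in DR against AL turned to -0.025 with median scaling, and Pold1 to 0.051 without the 12 arrays. The cause of these changes was not tested.

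Same-numbered arrays of different groups had a mean correlation of deviations of 0.24 (-0.07 to 0.55), over 0.1 in 19 of 24 pairs. Of the 24 arrays, 9 were closest to their own number in another group and 18 to their own number class. Between groups the mean correlation was 0.22 within a class and -0.07 across classes. The main fit did not take the labels' numbers as pairs and takes no account of this likeness. The replicate block called 4, 1 and 4 of the 10, and the number class block (chosen after seeing the data) 4, 1 and 4, each with 1 higher and 3 lower in DR against AL. Over all genes the main counts were 1150, 15 and 1123. They were 1886, 121 and 1765 under the replicate block, 1953, 154 and 1887 under the number class block, 1804, 48 and 1244 with array weights, 205, 218 and 986 without the 12 arrays, 460, 9 and 728 without the 7, and 577, 3 and 284 with median scaling. With median scaling DR against AL had 68 higher and 509 lower, against 511 and 639. For Rapa against AL alone the count was 8 with no filter, 25 with an offset of 50 and 29 with the mean of probes, and 8 to 36 with an array left out.

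Mcm3, Mcm7, Pcna, Mcm2 and Tk1 in DR lie near the background, which limits how well their differences are measured, and a difference below the threshold does not show that the groups are alike.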
